A study of Mus musculus with 12 samples.

Results

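The 10 genes examined here carry the machinery by which cells show peptides to T cells. They are the major histocompatibility complex (MHC) class II genes H2-Aa, H2-Ab1, H2-Eb1, H2-DMa and H2-DMb1 with Cd74 and Ciita, and the class I genes H2-K1 and H2-D1 with B2m. The rule named them by symbol and used no measured value, although earlier results of these data were known when it was set, and each matched 1 of the 25124 genes listed for interscapular brown adipose tissue (BAT). The tissue came from male mice of 10 weeks of age, WT or Txnip-/-, which spent 1 week at room temperature (RT, 23 °C) or at thermoneutrality (TN, 30 °C). Each of the 4 groups (RT WT and RT Txnip-/-, and their TN counterparts) had 3 RNA-seq libraries, 12 in all. The design asked what Txnip, a thioredoxin-binding protein that restrains glucose uptake, does in BAT. The Txnip-/- line was kept on a C57B/6J background, and the methods name no promoter or cell type to which its deletion was limited, so adipocytes and immune cells cannot be told apart as the site of an effect. The WT mice were described as littermates, but which libraries share a litter, or whether each comes from a mouse of its own, is not stated, and p-values measure only the spread between these libraries. RT WT and TN WT served as the controls at their own temperature, and RT libraries as the reference for TN within a genotype, so the genotype and temperature comparisons share libraries.

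MHC class II molecules present peptides from material that a cell has taken up, and are made mainly by macrophages, dendritic cells and B cells. H2-Aa and H2-Ab1 encode the chains of I-A, H2-Eb1 a chain of I-E, Cd74 the invariant chain that escorts them, and H2-DMa and H2-DMb1 the helper that loads the peptide. Ciita is the co-activator without which these genes are hardly transcribed. Class I molecules, a heavy chain from H2-K1 or H2-D1 bound to B2m, present peptides made inside the cell and occur on nearly all nucleated cells, adipocytes included. BAT holds resident macrophages and other leukocytes between its adipocytes, so RNA of the whole tissue mixes both sources.

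Class II promoters share a short module, in which an X box binds the RFX proteins and a Y box binds NF-Y, and on which CIITA docks. Class I promoters carry a related module that NLRC5 uses, and elements for interferon regulatory factors (IRF). The stretches printed here show how much of this lettering the members have in common, since the class II members moved together in the results that follow. RefSeq promoters on GRCm38.p6, which has the coordinates of mm10, were found for 7 of the 10 members, and H2-Ab1, Cd74 and Ciita had no entry. Each sequence is the 150 bases before the start of the transcript that was counted, 5′ to 3′ on the gene's strand. Capitals mark matches, on either strand, to the Y box core CCAAT (read as ATTGG on the other strand), the X box core AGNNACNGA or the IRF element in either order of its letters, GAAANNGAA or GAANNGAAA.
H2-Aa (chr17:34287824-34287973, minus strand): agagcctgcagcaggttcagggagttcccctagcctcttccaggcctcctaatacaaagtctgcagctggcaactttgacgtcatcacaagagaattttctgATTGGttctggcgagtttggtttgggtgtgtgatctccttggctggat
H2-Eb1 (chr17:34305717-34305866, plus strand): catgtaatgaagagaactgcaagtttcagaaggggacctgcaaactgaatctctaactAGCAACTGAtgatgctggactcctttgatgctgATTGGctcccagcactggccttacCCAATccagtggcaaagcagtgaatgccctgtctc
H2-DMb1 (chr17:34153041-34153190, plus strand): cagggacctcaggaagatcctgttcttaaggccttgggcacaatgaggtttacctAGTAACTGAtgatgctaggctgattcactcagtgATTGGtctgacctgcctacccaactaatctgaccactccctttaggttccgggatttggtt
B2m (chr2:122147537-122147686, plus strand): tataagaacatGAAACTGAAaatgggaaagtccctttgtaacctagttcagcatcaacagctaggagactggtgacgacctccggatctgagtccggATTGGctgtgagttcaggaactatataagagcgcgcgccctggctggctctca
H2-K1 (chr17:34000348-34000497, minus strand): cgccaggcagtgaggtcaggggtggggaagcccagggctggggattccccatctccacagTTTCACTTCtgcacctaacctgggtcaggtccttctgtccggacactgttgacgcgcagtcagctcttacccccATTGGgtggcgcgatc
H2-D1 (chr17:35262944-35263093, plus strand): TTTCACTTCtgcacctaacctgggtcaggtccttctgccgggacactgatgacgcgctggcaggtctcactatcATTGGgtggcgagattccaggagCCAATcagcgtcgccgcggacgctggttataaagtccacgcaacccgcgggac

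H2-Eb1 and H2-DMb1 held an X box core followed by a Y box core at nearly the same distance, with the X box starting 92 and 95 bases and the Y box 59 and 61 bases before the start. H2-Eb1 had a further Y box core 35 bases before the start, and H2-DMb1 a further X box core on the other strand from 163 bases, beyond the stretch printed. H2-Aa held a Y box core from 48 bases before the start and no match to the X box letters, while in H2-DMa none of the motifs was matched within 250 bases. All 3 class I members held a Y box core, at 53 bases in B2m, 16 bases in H2-K1 and both 76 and 53 bases in H2-D1. All 3 also held an IRF element, as GAAANNGAA at 139 bases in B2m and as GAANNGAAA on the other strand at 90 bases in H2-K1 and 150 bases in H2-D1, the latter order having been searched after the sequences were seen. Neither order was matched in the 4 class II members, and the STAT box TTCNNNGAA in none of the 7. Of the 32851 promoters of the same 250 bases, 33.85% held the Y box core, 14.66% the X box core, 7.13% and 6.31% the IRF element in these orders and 7.02% the STAT box, so a match is a description of the letters and not a binding site.

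The authors' tables gave each library between 29.93 and 47.44 (unit, 1e6 reads). Levels are given as TPM, a share of all transcripts that the authors scaled for transcript length and library size, so that different genes can be set side by side. The targeted gene followed the labels. Txnip was at 564, 581 and 694 TPM in RT WT against 24.8, 26.9 and 35.4 TPM in RT Txnip-/-, and at 1238, 1083 and 1072 TPM in TN WT against between 10.5 and 14.4 TPM in TN Txnip-/-. As brown fat should, all libraries held the adipocyte transcripts Fabp4 (a fatty acid carrier, 12336 to 18171 TPM) and Cidea (a lipid droplet protein, 1667 to 2701 TPM). Transcripts of skeletal muscle, which lies next to this depot, were uneven. The 5 muscle markers Acta1, Ckm, Myh4, Mylpf and Tnnt3 summed to 25.5, 17.8 and 42.4 TPM in RT Txnip-/- and to between 2.30 and 2.83 TPM in RT WT. At TN they summed to 14.2 TPM in WT replicate 2 and 14.35 TPM in Txnip-/- replicate 2, and to between 2.13 and 3.30 TPM in the other 4 libraries.

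In RT WT, the reference tissue, the class I genes were the more abundant by far. B2m averaged 536 ± 85.6 TPM (SD, n = 3), H2-D1 293 ± 41.0 TPM (SD, n = 3) and H2-K1 276 ± 31.1 TPM (SD, n = 3). The class II genes followed with 75.01 ± 6.62 TPM (SD, n = 3) for Cd74, 40.9 ± 4.36 TPM (SD, n = 3) for H2-Aa, 33.8 ± 2.74 TPM (SD, n = 3) for H2-Ab1 and 30.9 ± 5.23 TPM (SD, n = 3) for H2-Eb1. H2-D1 and H2-K1 overlapped in this order, as did H2-Ab1 and H2-Eb1. The loading helper was an order of magnitude lower, with 2.78 ± 0.0907 TPM (SD, n = 3) for H2-DMa and 1.92 ± 0.274 TPM (SD, n = 3) for H2-DMb1, and Ciita was lowest with 0.534 ± 0.0831 TPM (SD, n = 3). In TN Txnip-/- the gap had narrowed, with Cd74 at 551 ± 105 TPM (SD, n = 3) overlapping H2-K1 at 633 ± 86.2 TPM (SD, n = 3).

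**Figure D1:**
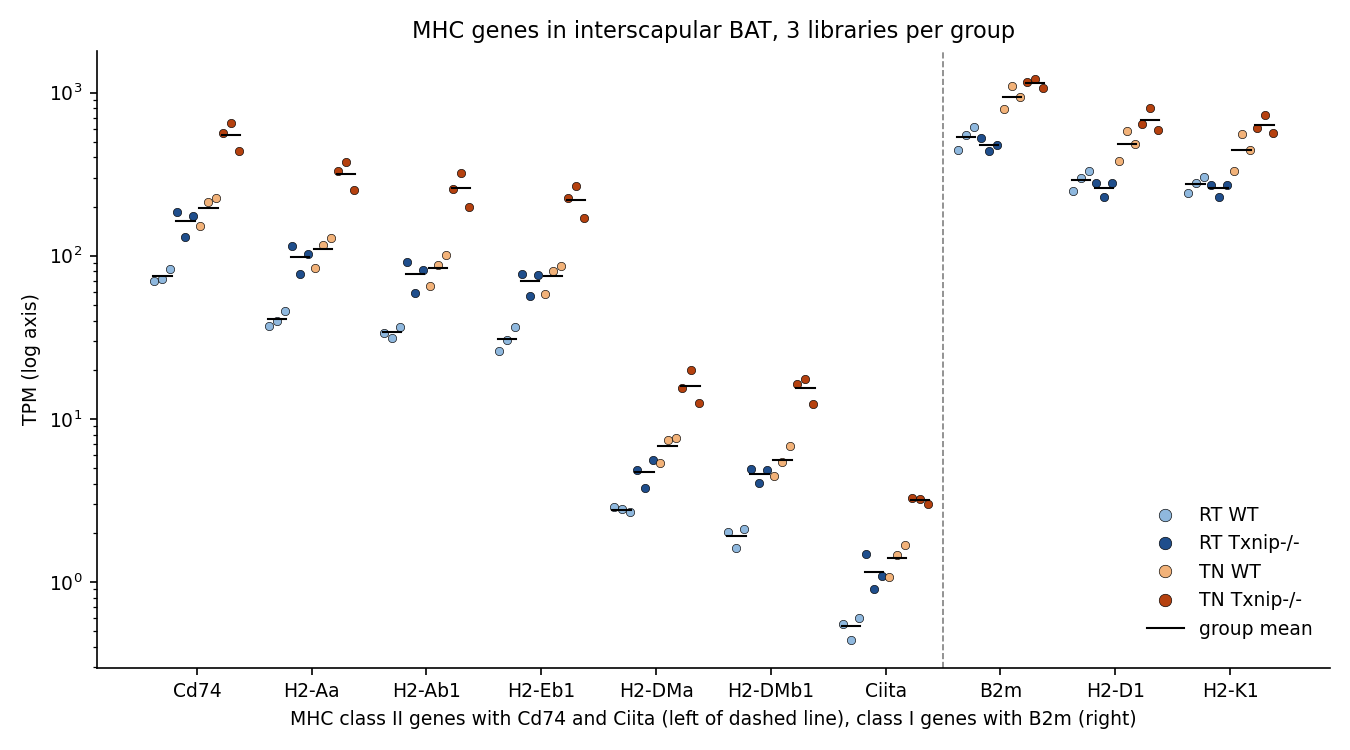
TPM (log axis) of the 10 MHC genes in each of the 12 libraries, with points for libraries coloured by group and lines for group means. In the 7 class II genes the groups climb from RT WT to TN Txnip-/-, with RT Txnip-/- and TN WT overlapping, whereas in the 3 class I genes RT WT and RT Txnip-/- overlap and both lie below the TN groups.

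At RT, the class II genes were higher in Txnip-/- BAT, by 2.18-fold (Cd74) to 2.41-fold (H2-Aa) in mean TPM for the 5 genes called, while the class I genes were not. H2-Aa, the alpha chain of I-A, stood at 37.3, 39.7 and 45.7 TPM in RT WT and at 115, 77.1 and 103 TPM in RT Txnip-/-. The I-A beta chain H2-Ab1 read 33.7, 31.2 and 36.7 TPM in RT WT and 90.8, 59.2 and 82.0 TPM in RT Txnip-/-. In these and in every other class II gene the lowest Txnip-/- library lay above the highest WT library. H2-Eb1, the beta chain of I-E, was at 26.1, 30.2 and 36.5 TPM against 76.9, 56.4 and 76.0 TPM. Its partner is not made in C57BL/6 mice, and the remnant H2-Ea-ps, named here after its values were seen, stayed between 0.136 and 1.06 TPM in the 12 libraries. Cd74 was at 70.2, 72.2 and 82.6 TPM in RT WT against 185, 129.8 and 175 TPM in RT Txnip-/-, replicate 2 being the lowest Txnip-/- library for each of these chains. In bulk tissue, more cells of a type and more RNA per cell cannot be told apart.

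The genes of peptide loading were higher in the same libraries at RT. H2-DMb1 was at 2.03, 1.61 and 2.12 TPM in RT WT and at 4.93, 4.05 and 4.84 TPM in RT Txnip-/-. H2-DMa was at 2.87, 2.79 and 2.69 TPM against 4.84, 3.77 and 5.59 TPM, and its log2 difference of 0.59 (standard error 0.13) missed the threshold with a limma adjusted p of 0.0791. Ciita was at 0.555, 0.442 and 0.604 TPM against 1.49, 0.902 and 1.08 TPM. Its mean was under the minimum of 1 TPM for testing, and without that minimum its log2 difference was 0.48 (standard error 0.12, limma adjusted p = 0.166). TPM were compared as log2(TPM + 1), on which the differences of genes at a few TPM are smaller than the ratios of their TPM.

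A gene was called where the value plus 1 was over 25% higher or over 20% lower, the fold limits of the study, and the limma p, adjusted by Benjamini-Hochberg over the 11980 genes tested at RT, was under 0.05. Of the 6 class II genes tested, 5 were called higher. The log2 difference was 1.23 for H2-Aa (standard error 0.15, limma adjusted p = 0.0203), 1.10 for Cd74 (standard error 0.14, limma adjusted p = 0.0208) and 0.94 for H2-DMb1 (standard error 0.11, limma adjusted p = 0.0203). It was 1.15 for both H2-Ab1 and H2-Eb1 (standard error 0.15 each, limma adjusted p = 0.0238 and 0.0255). Over all genes tested, 0.76% were called higher and 0.726% lower. Every Txnip-/- library lay above every WT library in all 6, which held for 15.1% of all genes. The median log2 difference of the 6 was 1.12, against 0.033 over all genes tested.

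The calls at RT depended on single libraries. With RT WT replicate 1, RT WT replicate 2, RT Txnip-/- replicate 1 or RT Txnip-/- replicate 3 left out, 0 members were called, with adjusted p of the 5 genes between 0.0635 and 0.0718, 0.105 and 0.122, 0.0502 and 0.0676, and 0.0905 and 0.102, respectively. Testing every gene above 0 TPM also left 0 members called, with adjusted p from 0.0530 to 0.0576. In these fits the log2 differences of the 5 genes stayed between 0.86 and 1.23, and their unadjusted limma p was at most 0.000849. On the authors' log2-scale values all 5 were called, with smaller log2 differences, from 0.36 for H2-DMb1 to 0.77 for H2-Aa. The muscle markers were also called higher in RT Txnip-/-, all 5 of 5, with log2 differences from 1.21 for Mylpf to 2.66 for Ckm, calls lost under 1 (Ckm) to 8 (Mylpf) of 13 alternatives, and their part in the class II result was not tested.

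At TN, all 7 class II genes were higher in Txnip-/- BAT, by 2.25-fold in mean TPM for Ciita to 3.06-fold for H2-Ab1. H2-Aa was at 84.1, 116 and 129 TPM in TN WT and at 328, 373 and 252 TPM in TN Txnip-/-. H2-Ab1 was at 64.7, 87.4 and 101 TPM against 255, 322 and 197 TPM, and H2-Eb1 at 58.5, 80.3 and 86.7 TPM against 224, 267 and 169 TPM. The invariant chain Cd74 was at 153, 213 and 226 TPM in TN WT against 564, 649 and 439 TPM in TN Txnip-/-. No WT library reached the lowest Txnip-/- library in any of these, and replicate 3 was the lowest of the Txnip-/- libraries throughout.

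The loading genes and the co-activator did likewise. H2-DMa was at 5.34, 7.46 and 7.65 TPM in TN WT and at 15.4, 19.8 and 12.5 TPM in TN Txnip-/-, and H2-DMb1 at 4.44, 5.45 and 6.85 TPM against 16.3, 17.6 and 12.3 TPM. Ciita was at 1.07, 1.47 and 1.69 TPM against 3.28, 3.23 and 3.003 TPM. The exons of Ciita share 111 bases with Dexi on the opposite strand, and 19.1% of the read-length (75-base) stretches of H2-DMb1 occur also in its neighbour H2-DMb2, so reads of these genes may be mixed. For the other class II genes no such stretch was shared with another annotated gene.

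All 7 class II genes were called higher at TN, where 6.49% of the 12891 genes tested were called higher and 2.17% lower. The log2 difference was 1.598 for H2-Ab1 (standard error 0.20, limma adjusted p = 0.00608), 1.53 for H2-Eb1 (standard error 0.19, limma adjusted p = 0.00596), 1.53 for H2-Aa (standard error 0.18, limma adjusted p = 0.00542) and 1.48 for Cd74 (standard error 0.18, limma adjusted p = 0.0056). It was 1.32 for H2-DMb1 and 1.10 for H2-DMa (limma adjusted p = 0.00602 and 0.0108) and 0.80 for Ciita (limma adjusted p = 0.00953). In all 7 the Txnip-/- libraries lay above the WT libraries, which was so for 17.7% of all genes tested. The median of the 7 was 1.48, against 0.0078 over all genes. Leaving out any 1 library kept all 7 calls. On the authors' log2-scale values all 7 were called with smaller log2 differences, from 0.61 for Ciita to 1.16 for H2-Ab1. Without both libraries that held muscle transcripts, which leaves 2 against 2, none of the 7 was called, with log2 differences of 0.81 to 1.46, limma adjusted p of 0.0501 to 0.0827 and unadjusted limma p of at most 0.00319.

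The class I genes did not follow at RT. B2m was at 443, 550.4 and 613 TPM in RT WT and at 523, 440.4 and 474 TPM in RT Txnip-/-. H2-K1 was at 243, 279.5 and 305 TPM against 273, 230.4 and 273 TPM, and H2-D1 at 249, 298 and 330.5 TPM against 278, 227 and 277 TPM. The groups overlapped for all 3. The log2 difference was -0.15 for B2m (95% interval -0.44 to 0.13, limma adjusted p = 0.607), -0.16 for H2-D1 (95% interval -0.44 to 0.12, limma adjusted p = 0.574) and -0.09 for H2-K1 (95% interval -0.33 to 0.15, limma adjusted p = 0.722). These intervals end below the lower limit of every class II gene tested, the lowest of which was 0.29 for H2-DMa.

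At TN, the class I genes were higher in the mean of Txnip-/- BAT and missed the threshold. H2-D1 was at 381, 584 and 481 TPM in TN WT and at 641, 799.7 and 589 TPM in TN Txnip-/-. H2-K1 was at 329.9, 561 and 443 TPM against 609.8, 729 and 561 TPM, and B2m at 797, 1090.4 and 942 TPM against 1153, 1213 and 1066 TPM. Both heavy chains had no overlap between the groups, H2-K1 by less than 1 TPM, and B2m overlapped. Every Txnip-/- library lay above every WT library for 17.7% of all genes tested at TN. All 3 class I genes had an unadjusted limma p under 0.05, as did 25.6% of all genes tested. The log2 difference was 0.53 for H2-K1 (95% interval 0.11 to 0.96, limma adjusted p = 0.116), 0.50 for H2-D1 (95% interval 0.11 to 0.89, limma adjusted p = 0.109) and 0.29 for B2m (95% interval 0.01 to 0.56, limma adjusted p = 0.176). The upper limits of these intervals stayed below the lower limits of H2-Aa, H2-Ab1, H2-Eb1 and Cd74, of which Cd74 had the lowest with 1.07, but not below those of H2-DMa, H2-DMb1 and Ciita. Without TN WT replicate 2, the WT library with the most class I RNA, H2-K1 was called (log2 difference 0.72, limma adjusted p = 0.0459). The heavy chains are near-copies of each other and of further H2 genes, with 7.1% of 75-base stretches of H2-D1 and 1.6% of those of H2-K1 found elsewhere, while B2m shares none. The 7.1% does not cover H2-L, which the authors list inside H2-D1 and whose reads cannot be told from those of H2-D1.

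**Figure D2:**
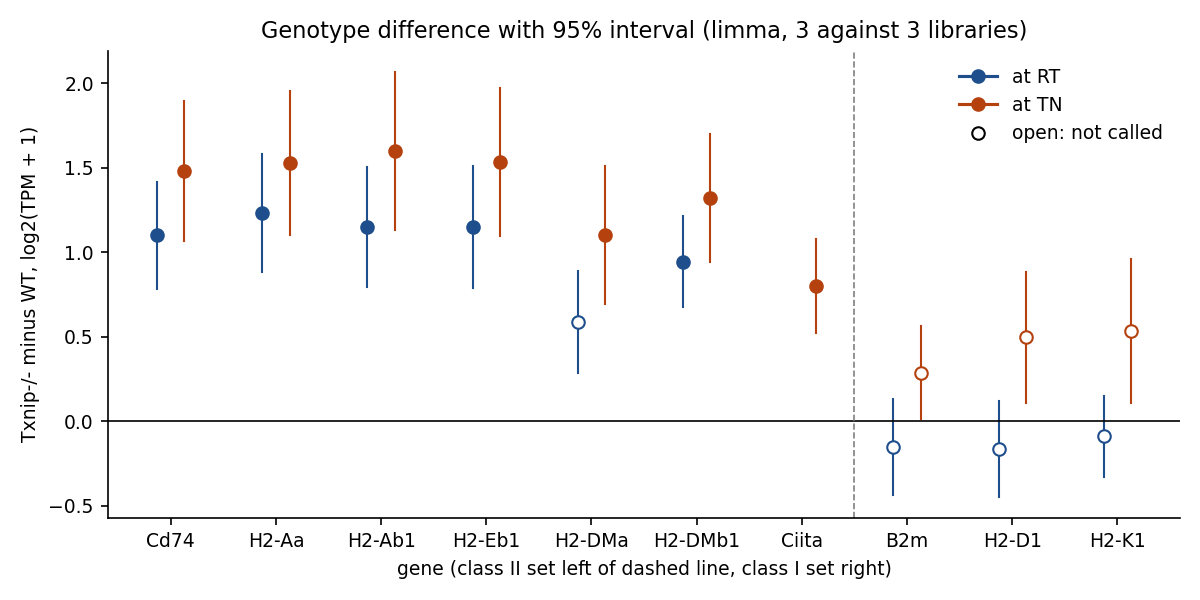
Difference of Txnip-/- minus WT on the log2(TPM + 1) scale for each MHC gene at RT (blue) and TN (orange), with bars for the 95% interval of the limma fit on 3 against 3 libraries and filled points for genes called. Class II genes lie between 0.59 and 1.598, class I genes between -0.16 and 0.53, and Ciita has no point at RT because it was not tested there.

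Whether the genotype difference changed with temperature was tested as an interaction on all 12 libraries. For none of the 10 members did it pass the adjusted threshold, which 1 of 12486 genes, Txnip itself, did (0.00801%), with 1571 genes (12.6%) at an unadjusted limma p under 0.05. The estimated difference was larger at TN than at RT for each member, by 0.30 to 0.51 on the log2 scale for the class II genes. It was larger by 0.66 for H2-D1 (95% interval 0.15 to 1.16, limma adjusted p = 0.283), by 0.62 for H2-K1 (95% interval 0.11 to 1.14, limma adjusted p = 0.323) and by 0.44 for B2m (95% interval 0.04 to 0.84, limma adjusted p = 0.356). The 3 class I genes had an unadjusted limma p under 0.05 and none of the class II genes did, and all 10 failed the correction.

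The balance of the classes differed between the genotypes at both temperatures. The summed TPM of B2m, H2-K1 and H2-D1 exceeded that of the 6 class II genes without Ciita by 5.43, 6.35 and 6.05 times in RT WT and by 2.25, 2.72 and 2.29 times in RT Txnip-/-. At TN the ratio was 4.08, 4.38 and 3.36 in WT and 1.71, 1.66 and 2.05 in Txnip-/-. No library of a Txnip-/- group reached the WT range of its temperature. The class II sum was 2.26 times the WT mean at RT and 2.88 times at TN, and the class I sum 0.905 times and 1.31 times. Averaged over genes as log2(TPM + 1), the class II mean went from 4.20 ± 0.10 (SD, n = 3) in RT WT to 5.23 ± 0.24 (SD, n = 3) in RT Txnip-/-, and from 5.44 ± 0.29 (SD, n = 3) in TN WT to 6.87 ± 0.30 (SD, n = 3) in TN Txnip-/-. The class I mean was 8.45 ± 0.20 (SD, n = 3), 8.32 ± 0.14 (SD, n = 3), 9.18 ± 0.31 (SD, n = 3) and 9.62 ± 0.17 (SD, n = 3) in the same order. Class II minus class I was thus higher in Txnip-/- by 1.16 at RT and by 0.99 at TN (0.716 and 0.670 on the authors' log2-scale values), given as a description since the genes were grouped with results of these data known.

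**Figure D3:**
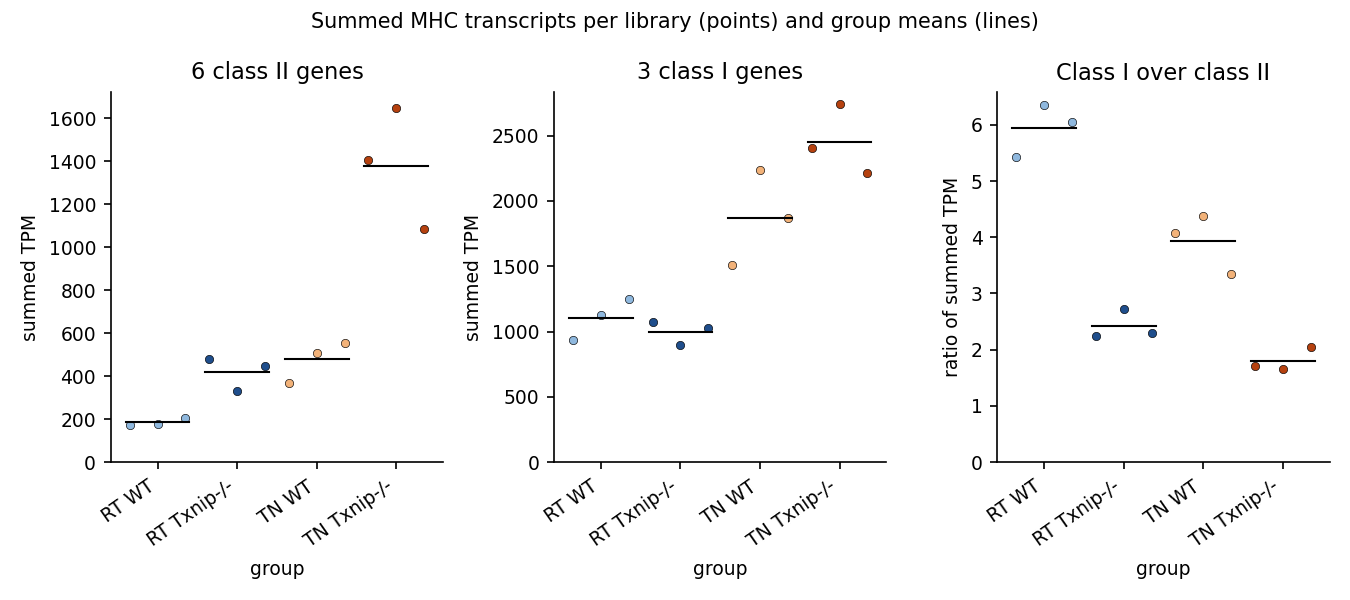
Summed TPM per library of 6 class II genes (left), of 3 class I genes (middle) and the ratio of class I to class II (right), with points for libraries and lines for group means. The ratio falls from a mean of 5.94 in RT WT to 2.42 in RT Txnip-/- and from 3.94 in TN WT to 1.81 in TN Txnip-/-.

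Both classes were higher at TN than at RT. Whether the RT and TN libraries were prepared together is not stated, so a difference in preparation cannot be told apart from temperature. All 10 members were called higher at TN than at RT in WT and all 10 in Txnip-/-, where 31.4% and 30.9% of the 12486 genes were called higher. No TN library of a genotype overlapped an RT library of that genotype for any member, and how many of all genes share this was not counted. In WT the log2 difference ran from 0.64 for Ciita to 1.38 for H2-Aa among the class II genes, and was 0.82 for B2m (standard error 0.13), 0.71 for H2-D1 and 0.66 for H2-K1 (limma adjusted p = 0.000571, 0.00432 and 0.00711). In Txnip-/- it ran from 0.96 for Ciita to 1.74 for Cd74 (standard error 0.18, limma adjusted p = 2.69e-05), and was 1.26 for B2m, 1.28 for H2-K1 and 1.36 for H2-D1. The median over all genes in these comparisons was 0.18 in WT and 0.15 in Txnip-/-, and all 10 calls held in each genotype after every library was centred on its own median. For the class II genes RT Txnip-/- and TN WT, which differ in both factors, overlapped in all 7.

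The rest of the pathway showed how far each class reached. Among 18 further genes of class II presentation, 16 were in the table, 7 were tested at RT and 12 at TN. Ctss, the lysosomal protease that trims the invariant chain, was the 1 gene called at RT and 1 of 3 called at TN, where 0.76% and 6.49% of all genes were called higher. It was at 4.395, 4.99 and 6.09 TPM in RT WT against 19.9, 12.6 and 18.4 TPM in RT Txnip-/-, and at 13.1, 26.1 and 33.9 TPM in TN WT against 101, 106 and 68.1 TPM in TN Txnip-/-. The log2 difference of Ctss at RT was 1.53 (standard error 0.18) with a limma adjusted p of 0.0202, and at TN it was 1.94 (standard error 0.31) with a limma adjusted p of 0.0114. The RT call was lost without the same 4 libraries as those of the members.

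At TN, Ifi30 and H2-DMb2 were also called. Ifi30, a thiol reductase that unfolds antigens in lysosomes, was at 13.5, 17.3 and 17.0 TPM in TN WT against 36.3, 43.1 and 27.9 TPM in TN Txnip-/- (log2 difference 1.11, standard error 0.16, limma adjusted p = 0.00819). Its RT groups were 0.21 apart on the log2 scale, with a limma adjusted p of 0.337. H2-DMb2, the other copy of the H2-DM beta chain, had a log2 difference of 0.51 at TN (limma adjusted p = 0.0198), a call that 8 of 14 alternatives lost. Its reads may be mixed with those of H2-DMb1. Ctsl, another lysosomal protease and the most abundant gene of this list in the mean of the 12 libraries though not in TN Txnip-/-, where Ctss was higher, was at 47.9 ± 3.56 TPM (SD, n = 3) in RT WT, 53.2 ± 2.17 TPM (SD, n = 3) in RT Txnip-/-, and, at TN, 48.8 ± 0.346 TPM (SD, n = 3) in the WT group against 58.6 ± 2.90 TPM (SD, n = 3), a TN difference under the fold limit. The median log2 difference of the genes tested was 0.15 at RT and 0.42 at TN. Between TN and RT, 7 of 10 tested were called higher and 1 lower in each genotype. Over all genes, 31.4% (WT) and 30.9% (Txnip-/-) were called higher.

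None of the 16 further genes of class I presentation (peptide transporters, immunoproteasome, chaperones and Nlrc5) was called at either temperature, with medians of 0.00 at RT and 0.17 at TN, and 4 and 2 of them at an unadjusted limma p under 0.05, which 16% of all genes tested had at RT and 25.6% at TN. Mr1, which presents vitamin metabolites, was called at TN in the fit of all 12 libraries alone (limma adjusted p = 0.0483). Calr, the chaperone calreticulin and the most abundant, averaged 179.5 TPM in RT WT, 179.8 TPM in RT Txnip-/-, 187 TPM in the TN WT libraries and 207 TPM in TN Txnip-/-. None of the other class I heavy chains was called either, of 12 tested at RT and 14 at TN, with medians of -0.08 and 0.36 and 2 and 6 at an unadjusted limma p under 0.05. Some were called at TN under an alternative, with H2-Q10 called under 3 of 14, H2-T23 under 2 and H2-M3 under 1. Between TN and RT, however, 9 (WT) and 11 (Txnip-/-) of the 16 presentation genes were called higher and 0 lower. Of the other heavy chains, 10 of the 12 were called higher and 1 lower in each genotype. Over all genes, 31.4% (WT) and 30.9% (Txnip-/-) were called higher. The next counts concern the heavy chains. Among those called higher are 3 pairs listed at overlapping positions (H2-Q6 and H2-Q8, H2-Q7 and H2-Q9, H2-T9 and H2-T22), which are not separate measurements.

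That exception was H2-Q10, a secreted class I heavy chain and the most abundant of this list. It was at 159.6, 126 and 162 TPM in RT WT and at 196, 233 and 246 TPM in RT Txnip-/-, and fell to 62.3, 119.7 and 92.2 TPM in the WT libraries at TN and to 156, 129 and 177 TPM in TN Txnip-/-. Every Txnip-/- library lay above every WT library of its temperature, and the log2 difference was 0.59 at RT and 0.78 at TN (standard errors 0.12 and 0.22, limma adjusted p = 0.067 and 0.0653), neither of them called. From RT to TN its log2 difference was -0.74 in WT and -0.55 in Txnip-/-, opposite in sign to H2-K1 and H2-D1.

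Of the genes of interferon gamma signalling, which induces both MHC classes, 10 were tested at RT with 0 called and 2 at an unadjusted limma p under 0.05, and 11 at TN with 1 called and 5 at an unadjusted limma p under 0.05, counts to be read against the 0.76% called higher and 16% unadjusted over all genes at RT and the 6.49% and 25.6% at TN. The gene called was Irf8, a transcription factor of macrophages and dendritic cells, at 3.15, 5.004 and 5.83 TPM in TN WT against 10.9, 12.2 and 10.1 TPM in TN Txnip-/- (log2 difference 1.12, standard error 0.17, limma adjusted p = 0.00998). The RT libraries had 1.07, 1.03 and 1.95 TPM against 3.01, 1.97 and 2.51 TPM (limma adjusted p = 0.184). Ifngr1, a chain of the interferon gamma receptor and the most abundant of the list, averaged 70.5, 87.8, 79.0 and 96.1 TPM from RT WT to TN Txnip-/- and was not called. Ifng itself, too low to be tested, was at 0.037, 0.265 and 0.048 TPM in RT WT against 0.201, 0.307 and 0.233 TPM in RT Txnip-/-, which overlap, and at 0.302, 0.356 and 0.348 TPM in TN WT against 0.577, 0.729 and 0.560 TPM in TN Txnip-/-, which do not. The medians of the list were 0.13 at RT and 0.28 at TN. Between TN and RT, 8 of 11 tested were called higher in each genotype, against 31.4% (WT) and 30.9% (Txnip-/-) of all genes. The TN calls of Ctss, Ifi30 and Irf8 were each lost under 1 of 14 alternatives, the one without both libraries that held muscle transcripts (limma adjusted p = 0.0858, 0.0542 and 0.082).

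**Figure D4:**
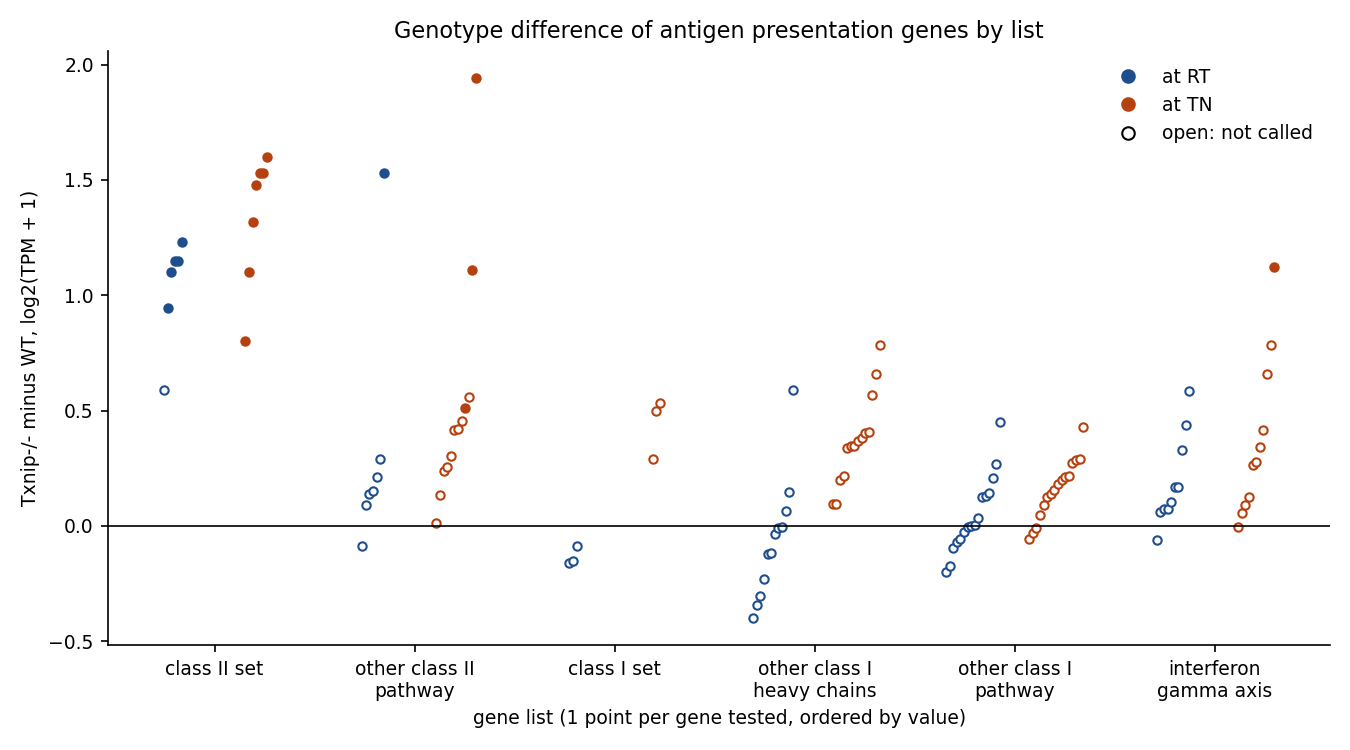
Difference of Txnip-/- minus WT on the log2(TPM + 1) scale for every tested gene of 6 lists at RT (blue) and TN (orange), filled where called. The class II set stands between 0.59 and 1.598, its wider pathway has 3 genes called at TN, and no gene of the 3 class I lists is called at either temperature.

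Class II molecules are made mainly by leukocytes, so leukocyte markers were read beside class II RNA, though its cell source was not measured here. Of all genes tested, 0.76% were called higher at RT and 6.49% at TN. Of the 4 pan-leukocyte markers, 3 were called higher at RT (Cd52, Ptprc and Coro1a, log2 differences 1.24, 0.92 and 0.70) and all 4 at TN (Cd52 1.36, Laptm5 1.34, Ptprc 1.22 and Coro1a 1.06). Of the macrophage markers, 3 of 10 tested were called at RT, namely the lysozyme Lyz2 (1.29), the complement chain C1qb (0.89) and the mannose receptor Mrc1 (0.66), and of these 6 leukocyte calls each was lost under at least 1 of 13 alternatives, from 1 for Cd52 to 9 for C1qb. At TN 9 of 11 were called, with Lyz2 at 1.46, C1qb at 1.36, Cd68 at 1.32, C1qa at 1.28, C1qc at 1.13, Adgre1 at 1.03, Csf1r at 0.85, Mrc1 at 0.74 and Fcgr1 at 0.68, and Cd163 and Mertk were not (0.02 and 0.23). Without both TN libraries that held muscle transcripts, 0 of these 13 TN calls remained (limma adjusted p from 0.0605 to 0.165), as for the class II genes. Calls of Cd52, Coro1a, Ptprc, Adgre1 and Fcgr1 at TN were also lost when some single libraries were left out. The summed TPM of the 11 was 84.4 to 100.4 in RT WT, 138 to 218 in RT Txnip-/-, 179 to 308 in TN WT and 493 to 701 in TN Txnip-/-. None of the 11 macrophage markers was at 0 in any library.

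The class II sum was then set against the macrophage markers, together and singly. The class II sum was 1.98 to 2.05 times the sum of all 11 in RT WT, 2.17 to 2.39 in RT Txnip-/-, 1.80 to 2.10 in TN WT and 2.19 to 2.35 in TN Txnip-/-. The Txnip-/- libraries lay above the WT libraries of their temperature, by 1.11 times at RT and 1.14 times at TN in the mean, less than for the class II sum itself. Lyz2, C1qa, C1qb and C1qc made up 78.5% to 88.0% of that sum. Taken singly, the 11 markers were 0.892 (Mertk) to 2.57 (Lyz2) times the WT mean at RT, with a median of 1.85, and 1.04 (Cd163) to 2.6998 (Lyz2) times at TN, with a median of 2.17. The fold of the class II sum, 2.26 and 2.88, exceeded that of 10 of the 11 at RT, all but Lyz2, and of 11 of 11 at TN. Class I ran the other way, at 11.1 to 12.6 times the macrophage sum in RT WT, 4.92 to 6.49 in RT Txnip-/-, 6.05 to 9.20 in TN WT and 3.91 to 4.49 in TN Txnip-/-. Against the pan-leukocyte sum, class II was at 12.5 to 17.8 in RT WT and 13.4 to 15.1 in RT Txnip-/-, and at 9.05 to 12.7 in TN WT and 11.7 to 12.4 in TN Txnip-/-, overlapping at both temperatures. How much of the class II difference goes with leukocyte number was not tested.

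**Figure D5:**
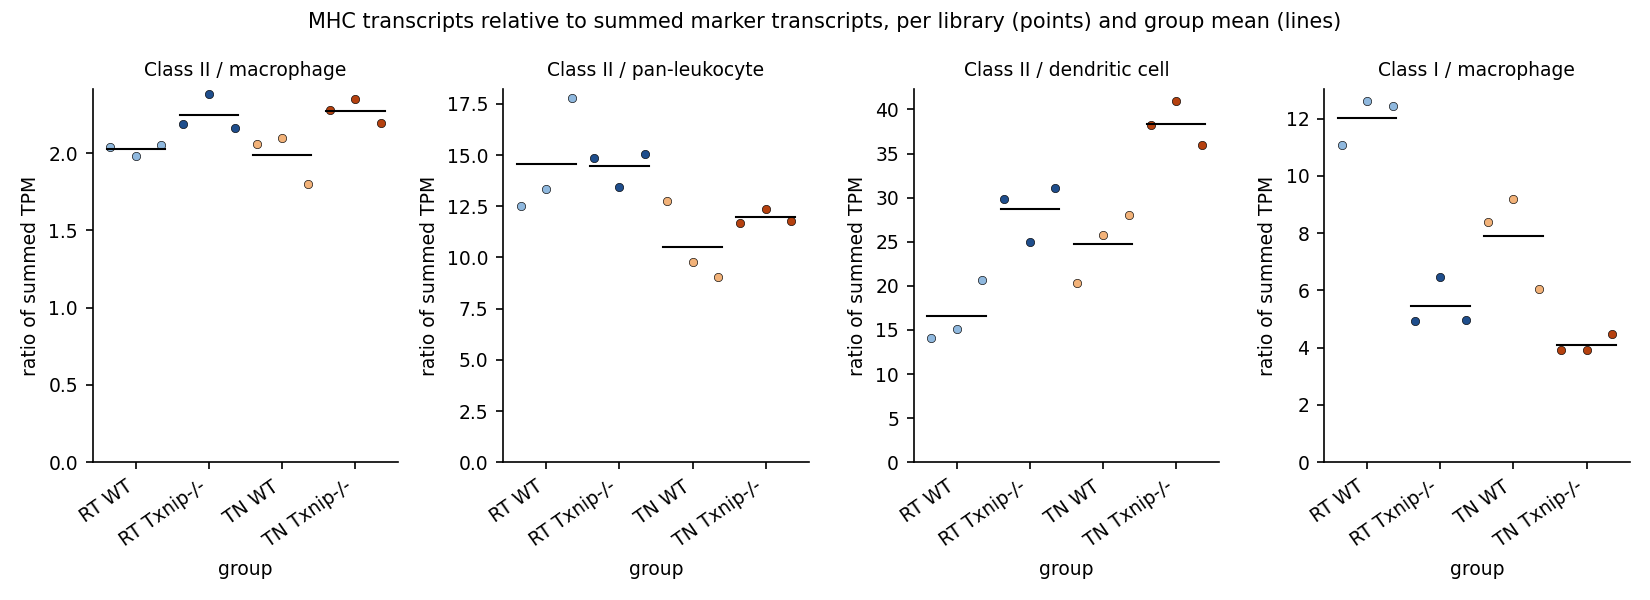
Ratio of the summed TPM of 6 class II or 3 class I genes to the summed TPM of marker lists, with points for libraries and lines for group means. Class II over macrophage markers stays between 1.80 and 2.39 in all 12 libraries, while class I over macrophage markers spans 3.91 to 12.6 and class II over dendritic cell markers 14.1 to 41.0.

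Markers of the other antigen-presenting cells were scarce. The 10 dendritic cell markers summed to 10.0 to 12.2 TPM in RT WT, 13.2 to 16.0 in RT Txnip-/-, 18.1 to 19.8 in TN WT and 30.1 to 40.2 in TN Txnip-/-, of which Zbtb46, also made outside dendritic cells, gave 6.24 to 7.93 TPM in every library. None of the 2 dendritic cell markers tested at RT was called. Of the 8 too low to be tested there, 6 had every Txnip-/- library above every WT library, from 1.81 times the WT mean for Xcr1 to 5.34 times for Itgax. This held for 15.1% of all genes tested at RT, and the share among genes too low to be tested was not computed. At TN 5 of 8 were called, against 6.49% called higher of all genes tested. Their log2 differences were 1.53 for Itgax, 0.86 for Siglech, 0.77 for Ccr7, 0.72 for Cd209a and 0.58 for Clec10a. B cell markers summed to at most 3.37 TPM at RT and 12.5 TPM at TN, and of those tested 0 of 1 was called at RT and 1 of 2 at TN (Cd79b, 0.61, with Cd79a at 0.27). T cell markers summed to 2.43 to 3.24 TPM in RT WT against 4.50 to 5.83 TPM in RT Txnip-/- and to 4.05 to 11.25 TPM in TN WT against 15.7 to 20.8 TPM in TN Txnip-/-, without overlap, with 0 of 1 called at RT and Cd4 (0.94) and Lck (0.92) of 6 at TN, with Cd3e at 0.43. Ccl21a, a chemokine of lymph node stroma, was called at TN (0.59) with all Txnip-/- libraries above all WT libraries, and of the other lymph node markers the highest, Fcer2a, averaged 0.468 TPM over the 12 libraries. These TN calls were fragile. Those of Ccl21a and Cd79b were each lost under 8 of 14 alternatives, that of Cd209a under 7, of Lck under 5 and of Clec10a under 4, and 0 of the 9 in this paragraph remained without both TN libraries with muscle transcripts.

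Some adipocyte transcripts were lower in the same comparisons. Of 7 brown adipocyte markers, Elovl3 (-1.52) was called lower at RT, where 0.726% of all genes tested were. That call was lost under 10 of 13 alternatives. At TN, where 2.17% of all genes tested were called lower, Ucp1 (-1.72), Cox8b (-1.24) and Cidea (-0.52) were. Elovl3 (-1.28, called under 4 of 13 alternatives), Plin1 (-0.28), Fabp4 (0.03) and Adipoq (0.18) were not called at TN. Of the 3 TN calls, that of Cox8b alone remained without both TN libraries with muscle transcripts. Their part in the class II result was not tested.

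The genes whose course over the 12 libraries came nearest to that of the class II set were macrophage and leukocyte genes. Likeness was the root mean square difference of centred log2(TPM + 1) values, over 12476 genes that were not members. It was 0.0899 for the chemokine Ccl9, 0.109 for C1qb, 0.144 for C1qa, 0.148 for the lysosomal membrane protein Laptm5 and 0.153 for C1qc, within the range of 0.0684 to 0.222 of the 6 class II genes themselves. Ccl9 averaged 0.874, 2.72, 3.31 and 10.55 TPM from RT WT to TN Txnip-/-. Nearest to the class I set came H2-L (0.0411), whose listed position lies inside H2-D1 so that its reads cannot be told from those of H2-D1, then Fam111a, an antiviral protease (0.111), the class I heavy chain H2-T23 (0.115), the cytokine signalling inhibitor Socs1 (0.123) and the nuclear body gene Sp110 (0.127). The 3 class I genes themselves ranged from 0.0382 to 0.0776, so that of these 5 only H2-L lay within their range. Ccl9 and Socs1 (0.565 TPM) averaged under 1 TPM in RT WT, where the log2(TPM + 1) scale shrinks differences. Ranks on another scale were not computed. H2-T23 averaged 21.1, 22.1, 36.7 and 55.0 TPM in the 4 groups and was not called at TN (log2 difference 0.57, limma adjusted p = 0.0735).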

How the data were processed

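BAT RNA of 12 libraries was poly-A selected and sequenced by the authors as single-end reads of 75 bases. Per the labels and methods, reads were demultiplexed with bcl2fastq, aligned to mm10 with STAR 2.7.5a and counted on exons with HOMER 4.11.1, keeping 1 transcript per gene. Strandedness of the counting is not given in the sources used here. The TPM of all 12 libraries were deposited by the authors and were used as the main values, and those of the 25124 genes listed sum to 55.38% to 57.55% of the total to which TPM are scaled. The authors also deposited log2-scale values normalized within the 6 libraries of each temperature, which use another transcript for 4 members (Cd74, Ciita, H2-DMa and H2-K1) and served as an alternative. The authors' own fold changes, p-values and adjusted p-values, from DESeq2, were not used.

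Read totals per library were 29.93 to 47.44 (unit, 1e6 reads). TPM give no counting error, so the spread between 3 libraries set the precision. Genes with a mean of at least 1 TPM over the libraries compared were tested on log2(TPM + 1) in R 4.3.3 with limma 3.58.1 (moderated test with expression trend, Benjamini-Hochberg adjustment over all genes tested), by genotype on the 6 libraries of each temperature, and for the interaction and temperature on 12 libraries with 4 group means. The fold limits were those of the study. The pipeline was tested on simulated data. Marker and pathway lists were written by symbol, and the members and lists were chosen with earlier results of these data known. Named are all members, the called and the most abundant genes of each pathway list, the 5 genes nearest in profile to each class, and of each marker list the called genes and those with the highest TPM. Shared 75-base stretches and exon overlaps come from GENCODE transcripts of the mm10 assembly, and promoters from RefSeq. The alternatives were log2(TPM + 0.1), no filter on low TPM, upper-quartile scaling, median centring, a replicate block, each library left out, 1 fit of all 12 libraries, the authors' log2-scale values, no fold limit and other gene choices for the class means. An adjusted p limit of 0.1 and leaving out both TN libraries with muscle transcripts were added after the data were seen. Python 3.11.15 with matplotlib 3.10.9 made the plots.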

Additional observations from a re-analysis of the deposited data

How the results depend on the processing

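At RT, 5 members were called, and between 0 and 5 when 1 library was left out. Without the filter on low TPM, which adds genes to the adjustment, 0 were called, and with an adjusted p limit of 0.1 there were 6, H2-DMa being added. At TN, 7 members were called, 7 to 8 when 1 library was left out, and 0 without both TN libraries that held muscle transcripts, where 2 against 2 libraries remained, an alternative chosen after seeing the data, as was the limit of 0.1. All 10 members kept their TN against RT calls in both genotypes, and 0 had an interaction call, under every alternative run. With the replicate block, 5 members were called at RT and 8 at TN, H2-D1 being added with a limma adjusted p of 0.0488. Among the other list genes and the nearest genes, the block added calls of H2-Q6, H2-Q7, H2-Q8, Ifngr2, Cd3g, Elovl3, Fam111a and Sp110 at TN and of C1qa at RT, and lost those of Mrc1, C1qb, Ptprc, Coro1a, Elovl3 and Mylpf at RT and of H2-DMb2 at TN. Across genes, the deviations of same-numbered WT and Txnip-/- libraries from their group means correlated with r = 0.3, -0.013 and 0.216 at RT and 0.039, 0.023 and -0.029 at TN, and 4 of 6 libraries at RT and 2 of 6 at TN correlated best with their own number. Not every pair was above 0.1, so the numbers were not taken to pair the libraries, and whether same-numbered libraries share a litter is not stated. Class II minus class I in Txnip-/- over WT was 1.29 at RT with H2-Aa, H2-Ab1, H2-Eb1 and Cd74 alone, and with the authors' log2-scale values the values were 0.716 (RT) and 0.67 (TN), of which the cause was not tested. Leaving out 1 library gave 1.11 to 1.24 at RT and 0.88 to 1.09 at TN. No difference of a member between Txnip-/- and WT changed sign under any alternative. Genes under 1 TPM, such as Ciita at RT, are near the floor of the log2(TPM + 1) scale.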
